A study of Mus musculus with 25 samples.

Results

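Livers of 24-month-old male p53KO mice fed a high-fat diet (HFD) were compared with livers of p53KO mice fed a control diet, across all expressed genes. The contrast used the 7 libraries labelled HFD_p53KO and the 6 labelled Control_p53KO, 13 of the 25 in the series, and every difference is given as HFD minus control diet. The other 12 libraries, 6 labelled Control_Rosa26KO and 6 labelled HFD_Rosa26KO, came from mice of the same strain (C57BL6/J), sex and age. They entered the same fit and served as the comparison genotype. Rosa26 is a locus commonly used as a neutral target, and p53, encoded by Trp53, is a transcription factor that responds to DNA damage and other stress. The sources used here do not give how the knockouts were made, in which cells Trp53 was targeted, what the diets contained or how long they were fed. All 25 libraries were made from polyA RNA of flash-frozen whole liver. No label states that the libraries of a group came from separate animals, so p-values measure the spread between these libraries.

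When dietary fat is abundant, hepatocytes take up fatty acids and esterify them to triglyceride, which is stored in droplets coated by perilipins. Fatty acids also act as ligands of PPAR nuclear receptors, whose targets include genes of fatty acid oxidation and of droplet formation. Synthesis of new fatty acids and of cholesterol is driven by SREBP factors, which are restrained when the end products are plentiful. The liver further makes lipoproteins, clears drugs and steroids with cytochrome P450 enzymes, and holds macrophages and other immune cells that can change in number with age or obesity.

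Expression is given as CPM, a gene's read count divided by its library's total and put on a common scale, with totals adjusted by the trimmed mean of M values (TMM). A gene was called when its adjusted p was under 0.05 in edgeR's quasi-likelihood test, and 14133 of 24537 genes were tested. Total counts per library ran from 18142837 to 20414485 on control diet and from 16611754 to 21501281 on HFD. Trp53 itself (chr11:69580359-69591873, GRCm38) had 17.2 to 35.6 CPM in the control-diet p53KO livers (median 23.3) and 19.6 to 31.0 CPM (median 26.1) on HFD, against 30.6 to 43.8 CPM in the Rosa26KO libraries. Transcript reads of Trp53 therefore remained in every p53KO library. The library Control_p53KO 3 and the highest HFD library (31.0 CPM) lay within the Rosa26KO range. These are gene totals and do not show whether a deleted part of the gene was read. Diet did not separate Trp53 levels in p53KO livers (log2 difference 0.11 ± 0.14 SE, adjusted p = 0.729). Some libraries stood apart. Control_p53KO 1 had a summed neutrophil marker level of 957 CPM where the other 5 controls had at most 299 CPM. Control_p53KO 3 had 4242 CPM of Kupffer cell markers where the other controls had at most 1060 CPM. HFD_p53KO 7 had the lowest summed stellate (232 CPM) and endothelial (310 CPM) markers. The first principal component (42.2% of the variance) placed HFD_p53KO 1 to 4 together with Control_p53KO 1 and 3, at scores from -33.8 to -13.4, and the other 7 libraries at scores from 0.711 to 38.2. Hepatocyte genes dominated all 13 libraries, with summed marker levels of 79282 CPM or more.

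HFD changed 405 genes in p53KO livers, 2.87% of those tested. Of these, 229 rose (1.62%) and 176 fell (1.25%), while the median log2 difference over all genes tested was -0.02. These shares are the background for every count of called list members below. At least 2-fold differences were seen for 52 rises and 69 falls. An unadjusted p under 0.05 (edgeR) was found for 2661 of the 14133 genes tested. That number holds both directions together and is the background for the list counts given below at that level. Its split by direction was not computed. In 149 genes (1.05% of those tested) the 7 HFD libraries and the 6 control libraries did not overlap, and among the called genes this held for 68 with HFD above and 41 with HFD below. The count of calls depended on single libraries: it was 173 without HFD_p53KO 4 and 760 without Control_p53KO 4. It also fell by more than 1.5 times without Control_p53KO 2 (179), HFD_p53KO 6 (204), Control_p53KO 5 (197), Control_p53KO 6 (231), HFD_p53KO 2 (248) or HFD_p53KO 3 (244). In all 13 fits that left out 1 library, 138 genes (82 rises, 56 falls) were called, and a named gene among them is given as called in 13 of 13 fits. The labels name no batch, and the library numbers are consecutive over the series. In that order the 4 groups recur 3 times, and these 3 stretches, called runs here, were compared because each holds both diets. Of 75 called genes named by rule, 74 differed in the same direction in all 3 runs, the exception being Sult1e1. These genes were called from the same libraries that make up the runs, so the choice itself favoured agreement in sign. The share over all genes was not computed.

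**Figure D1:**
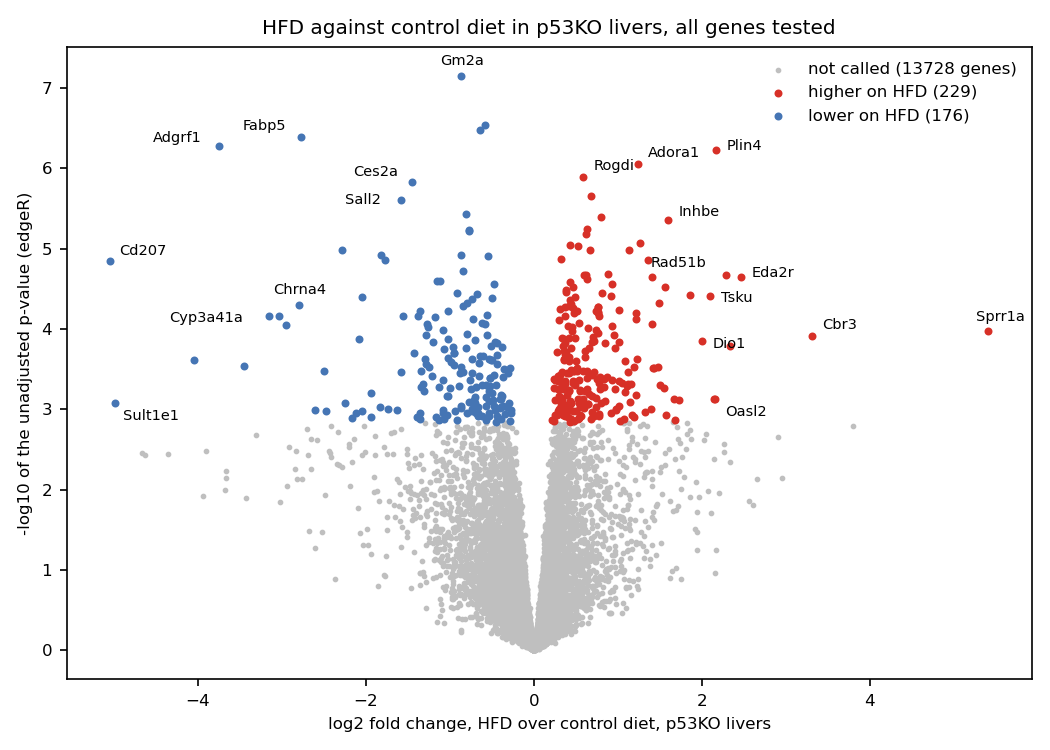
Log2 difference (HFD minus control diet, horizontal axis) against -log10 of the unadjusted p (vertical axis) for the 14133 genes tested in p53KO livers. Coloured points are the 229 genes that rose and the 176 that fell, and labels mark genes described in the text, such as Plin4 (2.17) on the right and Fabp5 (-2.77) on the left.

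Plin4 and Plin2, genes of lipid storage, rose. Plin4, which encodes a perilipin of the droplet surface (chr17:56100591-56109803, GRCm38), had 3.82 to 22.7 CPM on control diet (median 16.8) and 42.2 to 95.1 CPM on HFD (median 74.6). Every HFD library lay above every control, and the log2 difference was 2.17 ± 0.32 (SE, adjusted p = 0.00139, called in 13 of 13 fits). Within the 3 runs of library numbers the difference was 3.48, 1.94 and 1.75. Plin2, the perilipin found on droplets of most cell types, went from a median of 349 CPM (219 to 577) to a median of 755 CPM (494 to 932). Only the control library 4 reached into the HFD range, where HFD 5 and 7 were lowest, and Plin2 rose by 0.97 ± 0.22 (adjusted p = 0.0177, 13 of 13 fits). Plin5, which links droplets to mitochondria, had medians of 20.9 and 38.6 CPM (0.67 ± 0.20, adjusted p = 0.0659) and was not called.

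The droplet proteins Cidec and Cidea, which promote droplet fusion, spread widely. Cidec had 0.752 to 41.9 CPM on control diet and 15.3 to 86.5 CPM on HFD (1.66 ± 0.66, adjusted p = 0.162), and Cidea had 1.09 ± 1.02 (adjusted p = 0.609). Pnpla3, a lipase-like droplet protein that SREBP-1c induces, had 12.7 to 92.6 CPM on control diet and 3.13 to 12.5 CPM on HFD, with no overlap. Its fall of 2.17 (adjusted p = 0.0472) was called in 2 of 13 fits. Pnpla5, a related lipase of low expression, fell by 2.60 ± 0.70 (adjusted p = 0.0429, 3 of 13 fits). Of 21 tested members of the list of droplet proteins and lipases, 2 rose and 1 fell, with a median log2 difference of 0.41 beside -0.02 over all genes. In Rosa26KO livers that list's median was 0.08.

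Pparg, the nuclear receptor that drives fat storage in adipocytes and in fatty liver, had 10.5 to 23.8 CPM on control diet (median 13.6) and 18.1 to 39.2 CPM on HFD (median 30.3). HFD_p53KO 7 alone fell within the control range, and Pparg rose by 0.93 ± 0.23 (adjusted p = 0.028, 6 of 13 fits, up to 0.0706 in the others). Agpat9, an older symbol of the glycerol-phosphate acyltransferase Gpat3 that begins triglyceride synthesis, rose from 3.54 to 10.5 CPM (median 4.90) to 12.3 to 22.8 CPM (median 15.3). The groups did not overlap, and the difference was 1.42 ± 0.34 (adjusted p = 0.0244, 9 of 13 fits). It was the called gene among 15 of triglyceride synthesis, beside 2.87% called over all genes tested. Mogat1, an alternative acyltransferase, had medians of 0.572 and 6.42 CPM with overlapping groups (adjusted p = 0.21).

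Of 18 listed genes of fatty acid uptake and binding, 1 rose (Pparg) and 1 fell, with a median of 0.04. Over all genes tested 2.87% were called. Cd36, a fatty acid translocase, had 72.4 to 219 CPM on control diet and medians of 109 and 279 CPM. Its HFD libraries lay between 235.5 and 310 CPM except HFD_p53KO 7 at 57.5 CPM, and it was not called (0.90 ± 0.33, adjusted p = 0.138), but was called without that library. Fabp2, Fabp4, Lpl and Vldlr, a pair of fatty acid carriers, a triglyceride lipase and a lipoprotein receptor, gave 0.95, 0.46, -0.53 and 0.58 with adjusted p from 0.234 to 0.646.

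The fall was Fabp5, the epidermal-type fatty acid binding protein (chr3:10012548-10016607, GRCm38). It had 43.7 to 145 CPM on control diet (median 82.6) and 7.84 to 17.1 CPM on HFD (median 14.5). No HFD library came near the controls, and the log2 difference was -2.77 ± 0.40 (adjusted p = 0.00139, 13 of 13 fits). Fabp5 also stands in the list of lipid-associated macrophage markers. Of its 17 members, Fabp5 was the called one, and the summed level of that list was 179 to 793 CPM on control diet and 111 to 587 CPM on HFD. Trem2, a receptor of those macrophages, had 43.1 CPM in Control_p53KO 3 and at most 4.86 CPM in the other controls, against 2.35 to 14.9 CPM on HFD. Its log2 difference of -0.12 turned to 1.78 without Control_p53KO 3 (adjusted p = 0.0711). Gpnmb, another gene of such cells, had medians of 6.87 and 30.4 CPM (1.97 ± 0.73, adjusted p = 0.135).

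**Figure D2:**
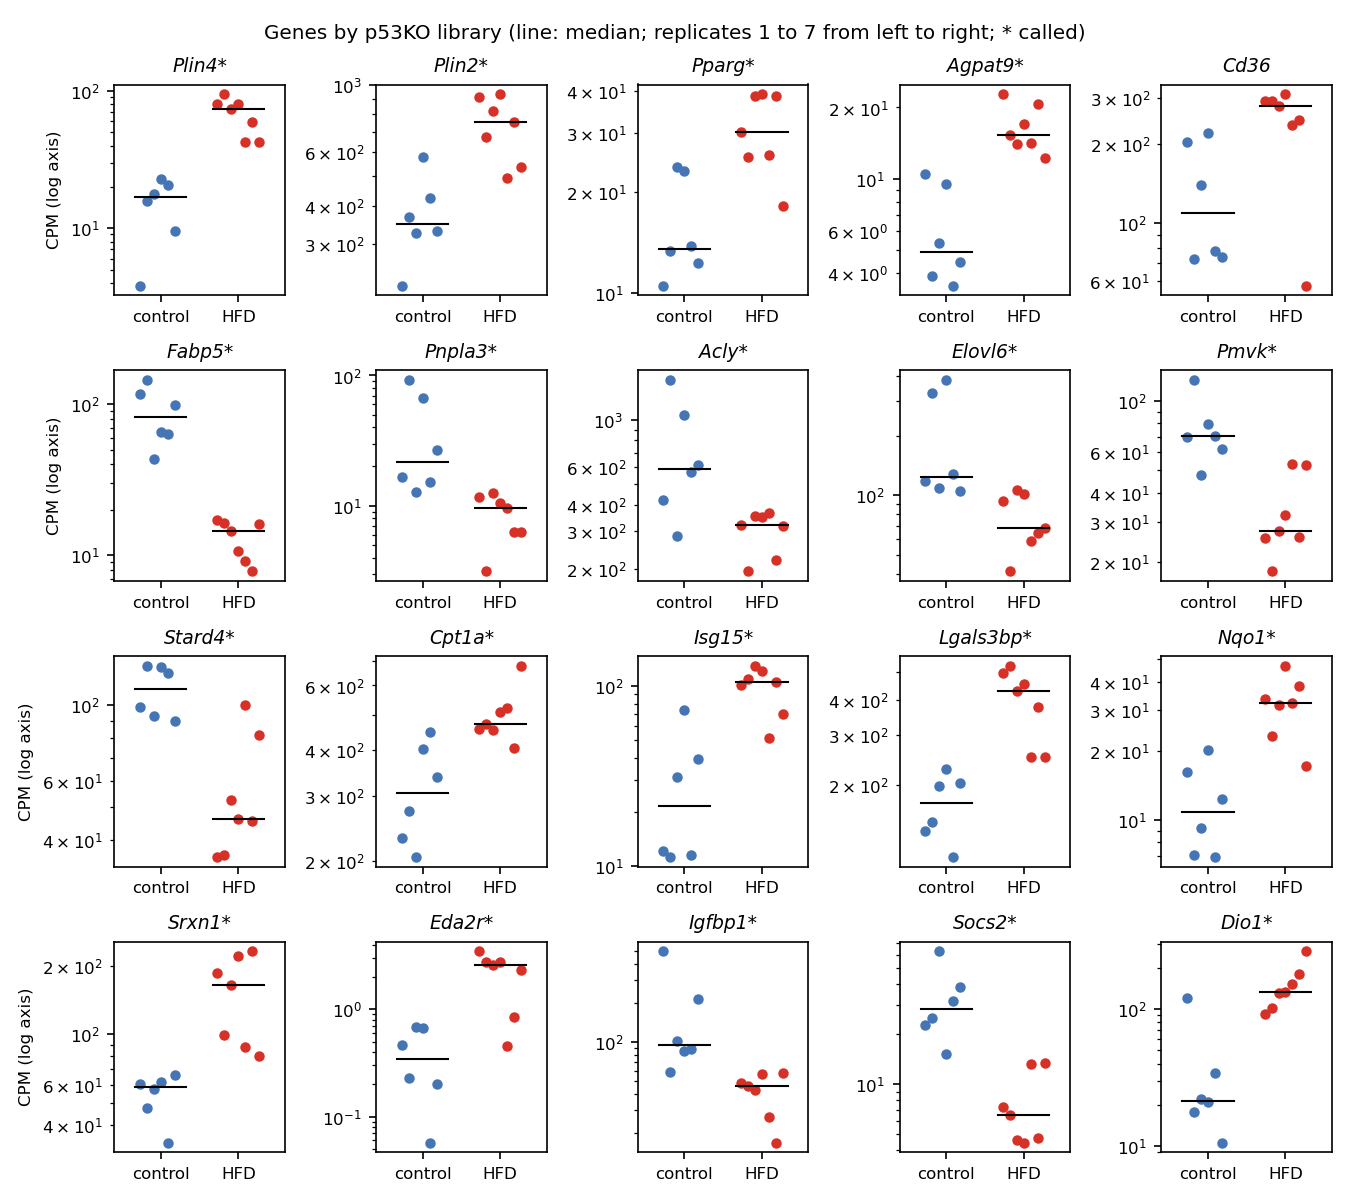
CPM (log axis) of 20 genes in each of the 13 p53KO libraries, with control diet and HFD as separate columns of points, the line at the group median and an asterisk for called genes. Plin4 and Fabp5 show no overlap between diets, and Plin2 shows overlap through the control library at 577 CPM.

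Of 22 tested genes of fatty acid synthesis, 4 fell and none rose (edgeR), and the list median was -0.65. At an unadjusted p under 0.05, 11 were lower and 0 higher. In Rosa26KO livers the list median was -0.78, with 5 called lower. Acly, which makes cytosolic acetyl-CoA from citrate, had 284 to 1538 CPM on control diet (median 590) and 195 to 368 CPM on HFD (median 321). Control_p53KO 2 (1538 CPM) and 4 (1047 CPM) were highest, Control_p53KO 3 lay among the HFD libraries, and Acly fell by 1.29 on the log2 scale (adjusted p = 0.0213, 11 of 13 fits).

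Acacb, the acetyl-CoA carboxylase of the mitochondrial surface, fell by 1.29 (adjusted p = 0.0228), from a median of 184 to 90.5 CPM. Acss2, which activates acetate, fell by 1.34 (adjusted p = 0.0252), from 365 to 159 CPM. Elovl6, the elongase of palmitate, fell by 1.36 (adjusted p = 0.044, 3 of 13 fits), from 124 to 68.6 CPM. All 4 calls depended on Control_p53KO 2: without it, 0 members of the list were called, and 5 were called without Control_p53KO 1. Fasn, the fatty acid synthase, had medians of 994 and 727 CPM (-1.07 ± 0.39, adjusted p = 0.134). Scd1, the main liver desaturase, had 8798 CPM or more in every control and 997 to 11911 CPM on HFD (-1.42 ± 0.45, adjusted p = 0.0788). Scd2 and Acaca gave -1.6 and -0.66, with adjusted p of 0.11 and 0.0703.

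Srebf1, which encodes SREBP-1, was not called and had medians of 291 and 338 CPM (0.14 ± 0.21, adjusted p = 0.773). Thrsp and Pklr, targets of carbohydrate signalling, had -0.66 and -0.63, with adjusted p of 0.52 and 0.383.

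Of 25 tested genes of cholesterol synthesis and uptake 4 fell, 24 had a log2 difference below 0, and the list median was -0.52. In Rosa26KO livers the list median was -0.90, with 5 called lower. Pmvk, phosphomevalonate kinase, had 47.6 to 124 CPM on control diet (median 70.5) and 18.3 to 53.4 CPM on HFD (median 27.3). HFD_p53KO 5 and 7 lay above the lowest control and the other 5 below it, and Pmvk fell by 1.17 (adjusted p = 0.0116, 13 of 13 fits). Stard4, a cytosolic sterol carrier, fell by 0.97 (adjusted p = 0.0177, 13 of 13 fits), from 89.7 to 131 CPM to 35.7 to 100.2 CPM. For Stard4, HFD_p53KO 5 and 7 (100.2 and 81.9 CPM) were again the highest HFD libraries.

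Fdps, farnesyl diphosphate synthase, fell by 1.07 (adjusted p = 0.0476, 3 of 13 fits). Its count is uncertain, since 26.7% of its exon bases are shared with the model Gm43738 on the same strand. Leaving out HFD_p53KO 5 or 7 brought the list's calls from 4 to 9. Within runs the list's mean difference was -1.65, -0.60 and -0.05, the last being the run that holds HFD_p53KO 5 and 7. Idi1 (-1.01), Sqle (-0.88) and Hmgcs1 (-0.51) of the same pathway were not called (adjusted p from 0.0828 to 0.397).

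Of 38 tested genes of fatty acid oxidation, many of them PPARA targets, 36 had a log2 difference above 0, 3 rose and none fell, 19 were higher and 0 lower at an unadjusted p under 0.05, and the median was 0.48. Slc22a5, the carnitine importer, had 11.8 to 18.9 CPM on control diet and 20.4 to 25.9 CPM on HFD. The groups did not overlap, and Slc22a5 rose by 0.68 ± 0.11 (adjusted p = 0.00309, 13 of 13 fits). Cpt1a, the gate of mitochondrial fatty acid import, had 205 to 450 CPM (median 305) on control diet and 405 to 680 CPM (median 472) on HFD. It rose by 0.66 ± 0.17 (adjusted p = 0.0342, 6 of 13 fits), overlapping through Control_p53KO 5.

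Slc25a20, the carnitine-acylcarnitine carrier, rose by 0.70 ± 0.19 (adjusted p = 0.0454, 2 of 13 fits). The number of called members ran from 1, without any of 6 single libraries, to 13 without Control_p53KO 4. The PPARA-induced P450s Cyp4a10 and Cyp4a14 varied too widely for a call. Cyp4a14 had 3.76 to 616 CPM on control diet and 10.8 to 882 CPM on HFD (1.15 ± 0.89, adjusted p = 0.52), and Cyp4a10 gave 1.10 ± 0.76 (adjusted p = 0.466). Acot1, an acyl-CoA thioesterase, and Pdk4, which restrains pyruvate oxidation, had 0.16 and -0.03 (adjusted p = 0.903 and 0.974), and Fgf21, a fasting hormone, had 0.68 (adjusted p = 0.559).

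**Figure D3:**
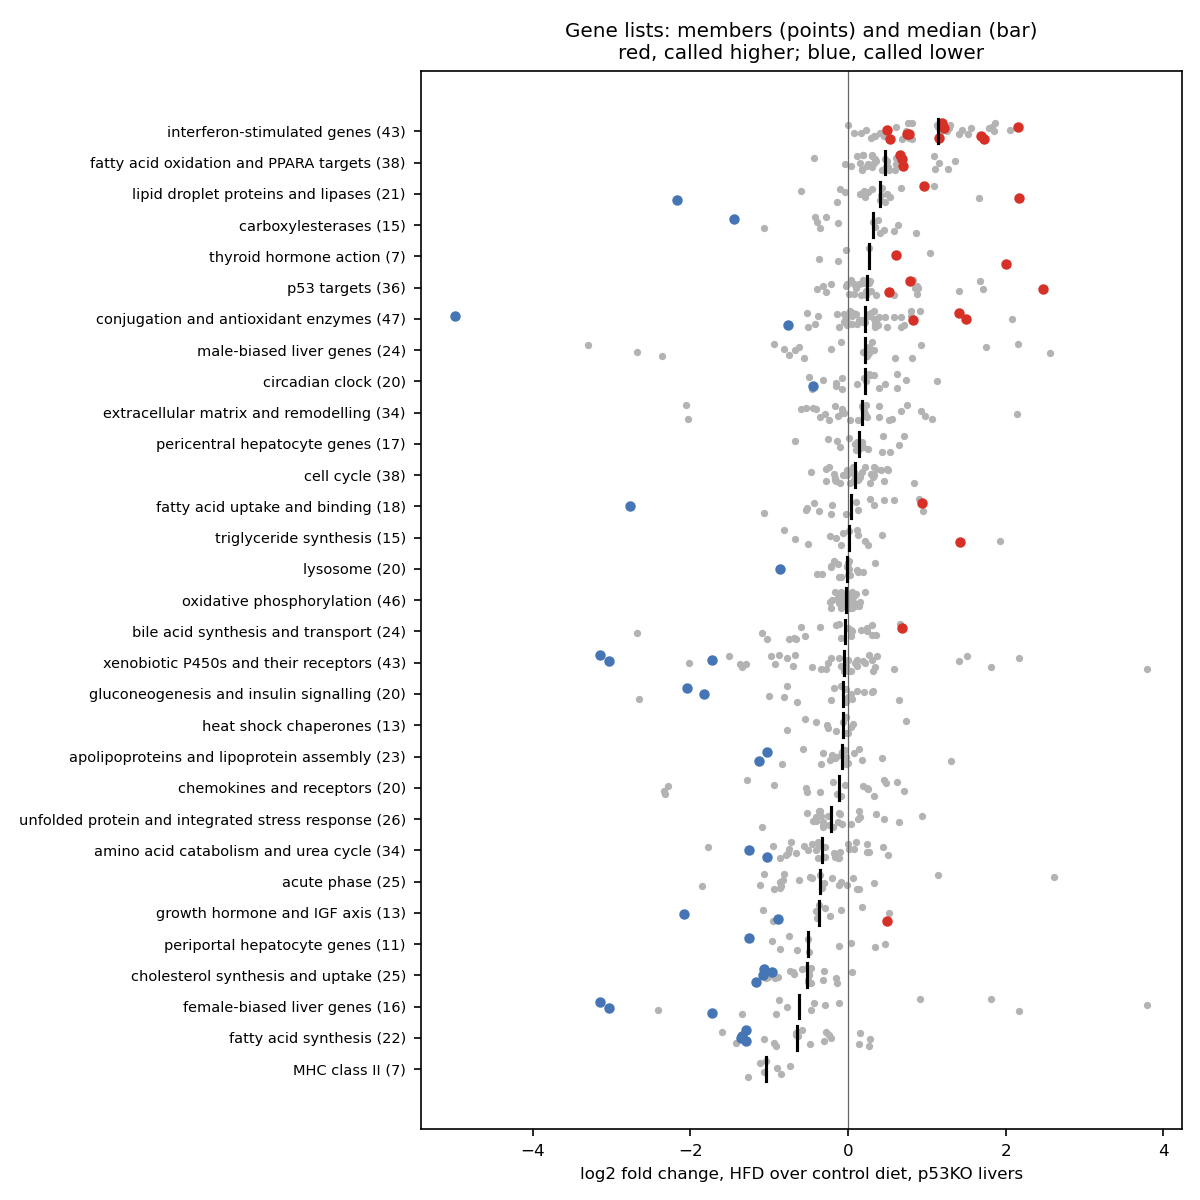
Log2 differences (HFD minus control diet) of the members of 31 gene lists in p53KO livers, 1 row per list, with points for members and a bar at the list median. The interferon-stimulated genes lie furthest to the right (median 1.14) and MHC class II genes furthest to the left (-1.04). Genes of fatty acid synthesis (-0.65), female-biased genes (-0.62) and genes of cholesterol synthesis (-0.52) also lie to the left.

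In lipoprotein and bile pathways the called genes were Apom, Pltp and Abcb4, beside 2.87% called over all genes tested. Apom, an apolipoprotein of HDL that carries sphingosine-1-phosphate, had 89.9 to 188 CPM on control diet and 37.1 to 116 CPM on HFD, and fell by 1.13 (adjusted p = 0.0304, 4 of 13 fits). Pltp, which transfers phospholipid between lipoproteins, fell by 1.03 (adjusted p = 0.0351, 6 of 13 fits), with -0.23, -1.12 and -1.14 within the 3 runs. Pltp shares 19.3% of its exon bases with Ctsa on the other strand. Apom and Pltp were the called 2 of 23 genes of lipoprotein assembly, whose median was -0.08. Abcb4, which exports phosphatidylcholine into bile, rose by 0.69 ± 0.17 (adjusted p = 0.0263, 8 of 13 fits), from a median of 184 to 300 CPM, and was the called 1 of 24 bile acid genes. Cyp7a1, the rate-limiting enzyme of bile acid synthesis, had medians of 115 and 40.7 CPM (-1.02 ± 0.30, adjusted p = 0.0604), and Cyp8b1, which sets the share of cholic acid, had 0.31 (adjusted p = 0.768).

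Interferon-stimulated genes had the highest median of the 44 gene and marker lists, 1.14, beside -0.02 over all genes. All 43 tested members had a log2 difference above 0, 36 were higher and 0 lower at an unadjusted p under 0.05, and 10 rose after adjustment. Isg15, a ubiquitin-like antiviral protein (chr4:156199424-156200818, GRCm38), had 11.2 to 73.4 CPM on control diet (median 21.6) and 51.3 to 130 CPM on HFD (median 105). Control_p53KO 4 was the highest control and HFD_p53KO 5 and 7 the lowest HFD libraries, and Isg15 rose by 1.73 ± 0.45 (adjusted p = 0.0375, 3 of 13 fits). Oasl2, of the oligoadenylate synthetase family, had 13.8 to 101 CPM (median 36.0) and 67.8 to 285 CPM (median 256), and rose by 2.16 ± 0.56 (adjusted p = 0.0371, 4 of 13 fits).

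Lgals3bp, a secreted glycoprotein, had groups that were fully apart, at 112 to 229 CPM (median 174) and 252 to 528 CPM (median 430). It rose by 1.21 ± 0.25 (adjusted p = 0.012, 13 of 13 fits). Ddx60 and Ddx58, which sense viral RNA (Ddx58 encodes RIG-I), rose by 1.19 ± 0.28 (adjusted p = 0.024, 10 of 13 fits) and 0.75 ± 0.18 (adjusted p = 0.0278, 7 of 13 fits). Xaf1, a pro-apoptotic protein, rose by 1.16 ± 0.29 and Parp9, an ADP-ribosyltransferase family member, by 0.54 ± 0.13 (adjusted p = 0.0295 and 0.028). Oas1g, Rtp4 and Dtx3l were called at adjusted p of 0.0486, 0.0455 and 0.0295. Parp9 and Dtx3l are neighbouring genes with overlapping exon bases, and the sources used here do not give which strand was counted.

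The number of called interferon-stimulated genes hung on single libraries. It was 1 without Control_p53KO 2, Control_p53KO 5 or HFD_p53KO 4, and 30 without Control_p53KO 4. It was also 1 without Control_p53KO 1 and 3 together. The list's mean difference in log2 CPM was 2.00, 0.78 and 0.86 within the 3 runs. In Rosa26KO livers the list median was 0.58 with 0 called by edgeR. Summed T and NK cell markers were 26.1 to 203 CPM on control diet and 15.6 to 88.0 CPM on HFD. None of these 20 markers was called by edgeR (2 at an unadjusted p under 0.05), and none was 0 in all 13 libraries.

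Many interferon-stimulated genes carry an ISRE, the interferon-stimulated response element, near their start. Its core, GAAA followed by any 2 bases and GAAA again, was searched on both strands of the RefSeq promoter windows (GRCm38.p6, 250 bases before to 50 after each start), and was chosen after values of these genes were known. Of the 10 that rose, 8 matched a window by symbol and 4 of those held the core (50%). Of all 43 tested, 31 had a window and 19 held it (61.3%), beside 3.44% of all 32851 windows. Overlapping matches were counted separately, and a gene with several starts had several windows. The stretches below show matches in 3 of the genes that rose, 5′ to 3′ along the gene's strand. Capitals mark the matched bases, at chr4:156200863-156200908 (minus strand) for Isg15, chr8:61928022-61928089 (plus) for Ddx60 and chr5:120887604-120887643 (minus) for Oas1g.
Isg15: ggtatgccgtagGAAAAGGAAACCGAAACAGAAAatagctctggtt
Ddx60: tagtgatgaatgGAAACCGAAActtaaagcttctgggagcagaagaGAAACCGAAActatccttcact
Oas1g: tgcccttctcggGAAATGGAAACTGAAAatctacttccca
Isg15 holds 3 overlapping matches in 1 block, Ddx60 the same matched letters at 2 places, and Oas1g 2 overlapping matches. The windows of Lgals3bp, Oasl2, Xaf1 and Dtx3l held none of these letters. Other motifs were searched the same way in smaller sets. The PPAR element (AGGTCA repeated after any 1 base) was in 0 of 3 of the risen genes Plin2, Plin4 and Pparg (0.0396% of all windows), and its AGGTCA alone in 2 of 3 (16.3%). The antioxidant element (TGA, any 4 bases, GC) was in 1 of the 3 risen conjugation and antioxidant genes (41.3% of all windows), and the sterol element (TCAC, any 1 base, CCAC) in 0 of the 1 fallen cholesterol gene that had a window (1.24%).

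**Figure D4:**
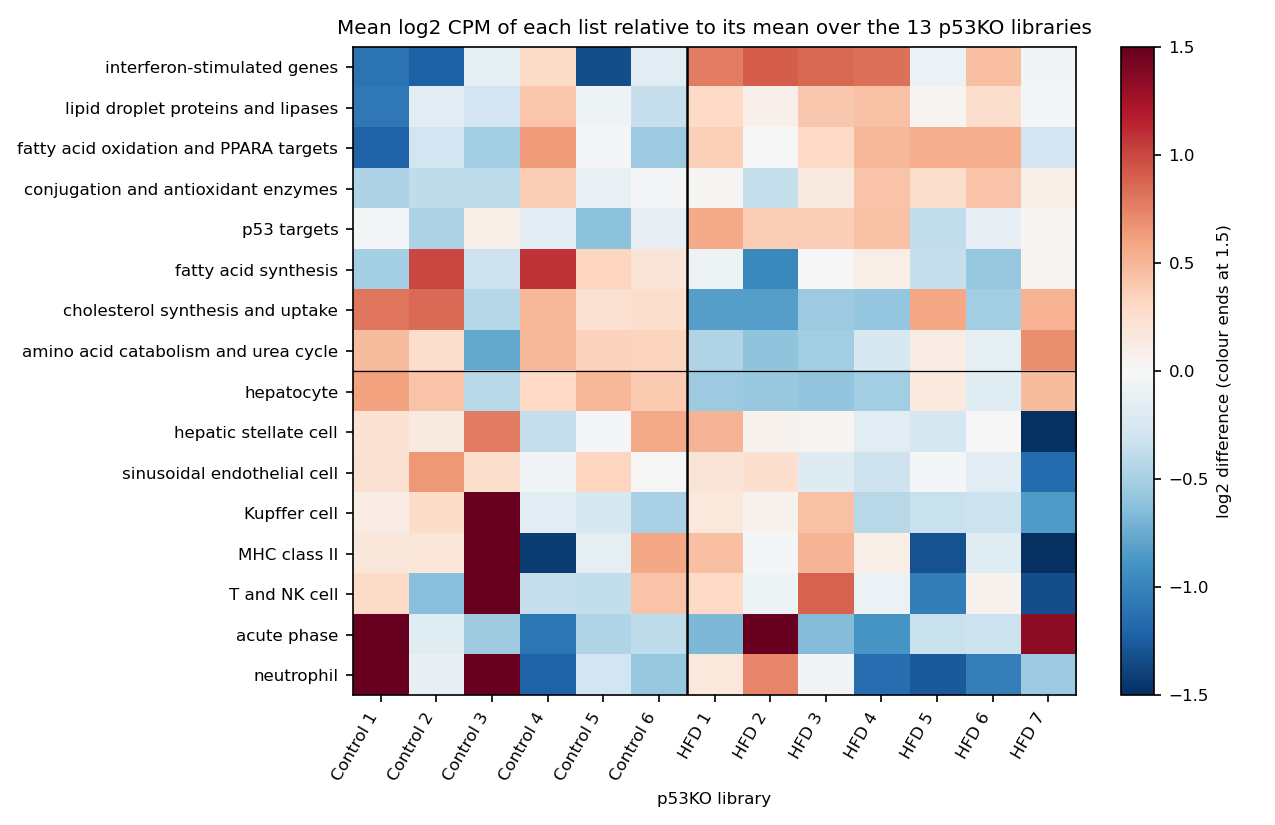
Mean log2 CPM of the tested members of 16 lists (rows) in the 13 p53KO libraries (columns), relative to the mean over the 13 libraries, with the colour scale ending at 1.5 on either side. HFD_p53KO 1 to 4 are high for interferon-stimulated genes, and HFD_p53KO 5 and 7 stand out from the other HFD libraries in the cholesterol genes.

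Some conjugation and antioxidant enzymes rose. Srxn1, which repairs peroxiredoxins, had 33.3 to 66.2 CPM on control diet (median 58.8) and 80.2 to 232 CPM on HFD (median 164). The groups did not overlap, and Srxn1 rose by 1.5 ± 0.30 (adjusted p = 0.011, 13 of 13 fits). Nqo1, a quinone reductase, went from a median of 10.8 CPM (6.91 to 20.2) to 32.4 CPM (17.3 to 47.0). It rose by 1.41 ± 0.30 (adjusted p = 0.013, 13 of 13 fits), with 1.37, 1.49 and 1.57 within the 3 runs. Cbr3, a carbonyl reductase outside the list, had 0.628 to 3.14 CPM and 2.05 to 37.6 CPM, and rose by 3.31 ± 0.72 (adjusted p = 0.0154, 13 of 13 fits).

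The HFD libraries 5 and 7 were lowest for Cbr3, at 2.05 and 3.52 CPM, while the other 5 had 12.6 CPM or more. In the list of 47 tested conjugation and antioxidant enzymes 3 rose and 2 fell, with a median of 0.22, beside 2.87% called over all genes tested. The rises were Srxn1, Nqo1 and Ugt2b35, a glucuronosyltransferase with similar paralogs, the last at 0.83 ± 0.21 (adjusted p = 0.0306, 6 of 13 fits). The falls were the sulfotransferases Sult1a1 (-0.77 ± 0.20, adjusted p = 0.0384, 5 of 13 fits) and Sult1e1. Sult1e1, which inactivates estrogen, had 112.8 CPM in Control_p53KO 1 and at most 1.23 CPM in the other 12 libraries. Its difference of -4.98 (adjusted p = 0.0388) thus came from 1 library, and it was 1.40 without that library (adjusted p = 0.335).

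Sprr1a, a cornified envelope protein induced by injury (chr3:92483952-92485895, GRCm38), was the largest rise, at 0 to 1.33 CPM on control diet and 0.185 to 52.1 CPM on HFD. HFD_p53KO 7 (0.185 CPM) stayed in the control range and HFD_p53KO 5 had 2.35 CPM, and the log2 difference was 5.41 ± 1.17 (adjusted p = 0.0144, 13 of 13 fits). Inhbe, the activin E subunit secreted by hepatocytes, had 13.8 to 56.0 CPM and 83.6 to 155 CPM without overlap, and rose by 1.6 ± 0.27 (adjusted p = 0.00441, 13 of 13 fits). Gdf15, a stress-induced hormone, had 0.83 ± 0.34 (adjusted p = 0.184). Of 26 unfolded protein and integrated stress response genes and 13 heat shock chaperones, edgeR called 0, with 2 and 1 at an unadjusted p under 0.05.

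Genes known as p53 targets were followed although Trp53 was targeted. Of 36 tested, 3 rose and none fell, 13 were higher and 1 lower at an unadjusted p under 0.05, and the median was 0.25, beside 0.31 in Rosa26KO livers. Eda2r, a TNF receptor family member, had 0.0571 to 0.692 CPM on control diet (median 0.346) and 0.460 to 3.47 CPM on HFD (median 2.59). HFD_p53KO 5 overlapped with the controls, and Eda2r rose by 2.47 ± 0.47 (adjusted p = 0.00845, 13 of 13 fits). Sesn2, a sestrin induced by several stresses, rose by 0.78 ± 0.16 (adjusted p = 0.0115, 13 of 13 fits), from a median of 7.56 to 13.1 CPM. Ccng1, cyclin G1, rose by 0.53 ± 0.14 (adjusted p = 0.037, 5 of 13 fits). Cdkn1a, which encodes the cell cycle inhibitor p21, had 3.54 to 25.6 CPM and 7.52 to 89.7 CPM (1.68 ± 0.53, adjusted p = 0.0796). It was called without HFD_p53KO 5, and Mdm2, the p53 ubiquitin ligase, had 0.26 ± 0.08 (adjusted p = 0.0685).

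Among 43 xenobiotic P450s and their receptors, 3 fell and none rose, with a median of -0.06, beside 2.87% called over all genes tested. The falls were Cyp3a41a (-3.15 ± 0.65, adjusted p = 0.0115), Cyp3a41b (-3.04 ± 0.63, adjusted p = 0.0115) and Cyp3a16 (-1.73 ± 0.46, adjusted p = 0.0418, 2 of 13 fits), which are female-biased in adult liver. Cyp3a41a and Cyp3a41b are near-identical copies, so their reads are uncertain between them. Cyp3a41a had 214 CPM in Control_p53KO 1, 5.26 to 23.2 CPM in the other controls and 2.65 to 7.63 CPM on HFD, and without that library its difference was -1.30 (adjusted p = 0.0502). Cyp3a41b had 117 CPM in the same library and 3.43 to 14.0 CPM in the other controls, and its difference without it was -1.33 (adjusted p = 0.0477). Of 16 female-biased genes the same 3 fell, with a median of -0.62, and none of 24 male-biased genes was called by edgeR (3 at an unadjusted p under 0.05). The female-biased list had no single direction: its summed level was 146 to 1040 CPM on control diet (median 260) and 203 to 779 CPM on HFD (median 570), Control_p53KO 1 and 4 being the highest controls. Its mean difference in log2 CPM was -0.32, 0.19 and 0.56 in the 3 runs, and 0 of its members were called lower with p53KO libraries alone, by voom or with the replicate block.

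Cyp3a11, the main drug-metabolising form, had 2069 to 4153 CPM on control diet and 170 to 1900 CPM on HFD. The groups were apart in every library, yet the gene was not called (-1.36 ± 0.44, adjusted p = 0.0845). Cyp2c29 and Cyp2b10 gave -1.29 and -2.01 (adjusted p = 0.051 and 0.0733). Cyp2b9, a female-biased form, had 205 CPM in Control_p53KO 4 and 0.401 to 10.2 CPM in the other controls. On HFD it had 91.1 CPM or more in 6 libraries and 7.41 CPM in HFD_p53KO 7 (2.17 ± 1.08, adjusted p = 0.283), and it was called without Control_p53KO 4. Ces2a, a carboxylesterase, fell by 1.45 on the log2 scale (adjusted p = 0.00234, 13 of 13 fits). It went from 149 to 419 CPM to 63.7 to 137 CPM without overlap, the called 1 of 15 carboxylesterases, beside 2.87% over all genes tested.

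Growth hormone acts on liver through STAT5, and Socs2 is a direct target that dampens the signal. Socs2 had 15.2 to 62.8 CPM on control diet (median 28.4) and 4.43 to 13.3 CPM on HFD (median 6.47). The groups did not overlap, and Socs2 fell by 2.09 (adjusted p = 0.0161, 13 of 13 fits). Stat5a itself rose by 0.49 ± 0.11 (adjusted p = 0.0159, 13 of 13 fits), Lifr, the leukemia inhibitory factor receptor placed in the same list, fell by 0.89 (adjusted p = 0.03, 5 of 13 fits), and Igf1 had medians of 549 and 363 CPM (-0.36 ± 0.18, adjusted p = 0.282). The list of 13 had 1 rise and 2 falls, beside 2.87% called over all genes tested.

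Igfbp2, an insulin-like growth factor binding protein, had 191 to 363 CPM on control diet and 12.7 to 148 CPM on HFD, and fell by 1.83 (adjusted p = 0.0412, 5 of 13 fits). Igfbp1, which insulin represses, had 58.8 to 497 CPM and 16.8 to 58.0 CPM and fell by 2.05 (adjusted p = 0.043, 4 of 13 fits), with -1.38 when Control_p53KO 1 was left out. Both had no overlap between diets, but the Igfbp1 groups nearly met, with the highest HFD library at 58.0 CPM and the lowest control at 58.8 CPM. Igfbp1 and Igfbp2 were the called 2 of 20 genes of gluconeogenesis and insulin signalling, beside 2.87% called over all genes tested. The gluconeogenic enzymes G6pc and Pck1 had -0.77 and -0.65 (adjusted p = 0.14 and 0.418).

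Of 7 thyroid hormone genes tested, 2 rose. Dio1, the deiodinase that activates thyroxine, had 10.5 to 33.9 CPM in 5 controls, 120 CPM in Control_p53KO 1 and 91.8 to 265 CPM on HFD (median 134). It rose by 2.01 ± 0.44 (adjusted p = 0.0164, 13 of 13 fits), and by 2.85 without Control_p53KO 1. Among 34 genes of amino acid catabolism and the urea cycle 2 fell, with a median of -0.33. Cps1, which commits ammonia to urea, had 1511 to 3585 CPM on control diet and 818 to 2662 CPM on HFD and fell by 1.03 (adjusted p = 0.0351, 4 of 13 fits). Hal, histidine ammonia-lyase, fell by 1.25 (adjusted p = 0.024, 8 of 13 fits). Rora, a clock-linked nuclear receptor, was the called 1 of 20 circadian genes (-0.45 ± 0.12, adjusted p = 0.0499, 3 of 13 fits). The list counts of this paragraph stand beside 2.87% called over all genes tested.

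Several genes of smallest p differed by less than 2-fold, with little spread within each diet. Gm2a, the GM2 ganglioside activator of the lysosome (chr11:55098115-55113029, GRCm38), had 195 to 248 CPM on control diet (median 229) and 108 to 144 CPM on HFD (median 123). Every HFD library lay well below every control. Gm2a fell by 0.87 on the log2 scale (adjusted p = 0.000999), with -0.86, -0.66 and -1.0 in the 3 runs. It was the called 1 of 20 lysosomal genes, beside 2.87% called over all genes tested. Gm2a, Fabp5 and Ces2a were among the genes called under every one of the 25 alternatives tried for this contrast.

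Epb41l5, a cytoskeletal adaptor, Sall2, a zinc finger factor, and Il11ra2, an interleukin 11 receptor copy, fell by 0.58, 1.58 and 0.77. None of these 3 overlapped between diets, and all were called in 13 of 13 fits. Il11ra2 has near-identical copies in Gm13305 and Gm2002, which had -0.81 and -0.77, so reads could be split among them. Rises of small p without overlap were Adora1, the A1 adenosine receptor, at 1.24 ± 0.19 (adjusted p = 0.00177), Rogdi at 0.59 ± 0.09 (adjusted p = 0.00226), Tdrp at 0.63 ± 0.11 and Tdrd7 at 0.62 ± 0.11. Adora1 shares 20.1% of its exon bases with Mybph on the other strand, and Mybph also rose (1.36, adjusted p = 0.00648). Fam107b rose by 0.80 ± 0.13 (adjusted p = 0.00441), with overlap.

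Tsku, tsukushi, a secreted protein of hepatocytes (chr7:98350668-98361328, GRCm38), had 21.3 to 83.2 CPM on control diet and 106 to 261 CPM on HFD, and rose by 2.10 ± 0.42 (adjusted p = 0.01). Mtnr1a, a melatonin receptor of low expression, rose by 1.86 ± 0.37 (adjusted p = 0.01), also without overlap. Rad51b, a DNA repair protein, and Spats2l rose by 2.29 ± 0.43 and 2.34 ± 0.52 (adjusted p = 0.00845 and 0.0175), all 4 in 13 of 13 fits. Themis, a T cell signalling protein, had 0.686 to 5.15 CPM and 2.72 to 19.6 CPM and rose by 2.14 ± 0.55 (adjusted p = 0.037, 4 of 13 fits).

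Among the largest falls, Cd207, langerin of antigen-presenting cells (chr6:83671215-83677857, GRCm38), had 267 CPM in Control_p53KO 3 and 2.01 to 18.7 CPM in the other controls. On HFD it had 0.356 to 4.32 CPM, and the difference was -5.04 ± 0.93 (adjusted p = 0.00659, 13 of 13 fits). Without Control_p53KO 3 the difference was -2.65 (adjusted p = 0.018). The same library was the one highest in Kupffer cell markers. Adgrf1, an adhesion receptor, went from 1.62 to 19.1 CPM to 0.267 to 1.48 CPM without overlap (-3.75 ± 0.55, adjusted p = 0.00139). Chrna4, a nicotinic receptor subunit, went from 22.8 to 192 CPM to 3.13 to 14.7 CPM without overlap (-2.80 ± 0.57, adjusted p = 0.0111), or -2.21 without Control_p53KO 2. Clec2h, a C-type lectin, fell by 2.95 (adjusted p = 0.0131, 13 of 13 fits), with -3.98 when HFD_p53KO 5 was left out. Gpx6 and Efna3, a glutathione peroxidase and an ephrin, fell by 2.48 and 2.24 (3 of 13 fits each), and Gpx6 had -1.68 without Control_p53KO 4.

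Called markers of the cell types in whole liver are counted below, beside 2.87% called over all genes tested. In bulk tissue, fewer cells of a type and less RNA per cell cannot be told apart. Hepatocyte markers had a median log2 difference of -0.56, with 1 of 12 called (Cps1). Their summed level was 101096 CPM in Control_p53KO 3 and 169792 CPM or more in the other controls, against 79282 to 153621 CPM on HFD. The part of this difference in the falls of other hepatocyte genes was not tested. Reln, a stellate cell marker, fell by 1.06 (adjusted p = 0.0178, 13 of 13 fits) and was the called 1 of 18, whose median was -0.34. Ehd3 and Bmp2, of sinusoidal endothelium, fell by 0.84 and 0.70 (adjusted p = 0.0111 and 0.0388) and were the called 2 of 20, with a median of -0.47 and 9 lower at an unadjusted p under 0.05.

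The summed endothelial level was 655 to 1142 CPM on control diet and 310 to 880 CPM on HFD. Kupffer cell markers summed to 613 to 4242 CPM and 444 to 1316 CPM, with edgeR calling 0 of 13 (4 at an unadjusted p under 0.05). EdgeR also called 0 of 38 cell cycle genes, 46 of oxidative phosphorylation and 20 chemokine genes, with 1, 0 and 4 at an unadjusted p under 0.05. MHC class II genes had a median of -1.04 and 0 of 7 called by edgeR, 5 being lower at an unadjusted p under 0.05. Their summed level was 4344 CPM in Control_p53KO 3, 216 to 928 CPM in the other controls and 229 to 894 CPM on HFD. Within the 3 runs the mean difference of these genes in log2 CPM was 0.04, -0.28 and -1.22. Col1a1, the main fibrillar collagen, had 0.98 ± 0.59 (adjusted p = 0.39), with edgeR calling 0 of 34 matrix genes (4 at an unadjusted p under 0.05). The acute phase proteins Saa1 and Lcn2 and the oncofetal Afp gave -0.86, 0.07 and 0.15 (adjusted p from 0.796 to 0.985), Saa1 at 8813 CPM in Control_p53KO 1 and 30.7 to 107.4 CPM in the other controls.

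In Rosa26KO livers, the same diet contrast called 213 genes (1.51%), 63 higher and 150 lower. Of these, 71 were also called in p53KO livers, which is 17.5% of the p53KO calls and 33.3% of the Rosa26KO calls, all 71 in the same direction. Of the 405 genes called in p53KO livers, 377 had the same sign in Rosa26KO livers. The share of equal sign over all genes was not computed. Over all genes tested, the log2 differences of the genotypes had a Pearson correlation of 0.32. The 229 rises had a median of 0.60 in p53KO and 0.29 in Rosa26KO, and the 176 falls -0.81 and -0.57. Choosing genes by their p53KO test enlarges that test's values, so these medians alone do not compare the genotypes. Plin4 (2.46), Fabp5 (-2.51), Gm2a (-0.82) and Ces2a (-2.03) were also called in Rosa26KO livers. Tsku (0.65), Socs2 (-0.42), Reln (-0.07) and Inhbe (0.74) were not, with adjusted p from 0.161 to 0.906.

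The difference of the diet effect between genotypes was tested directly, and edgeR called 0 genes (0% of those tested), with 1221 at an unadjusted p under 0.05 and a smallest adjusted p of 0.462. DESeq2 called 5, namely Mpo, Ngp, Ltf, Rogdi and Zfp64, and limma voom called 0. The 10 genes of smallest p were Rogdi, Zfp64, Mpo, Ngp, Camp, Ltf, Usp10, Fzr1, Nrbp1 and Chsy3. Rogdi, a leucine zipper protein, went from 10.1 to 14.1 CPM to 15.0 to 21.3 CPM in p53KO, with 0.59 in p53KO and -0.05 in Rosa26KO. Zfp64, a zinc finger protein, had 0.32 and -0.32. Usp10, a deubiquitinase that acts on p53, rose by 0.37 ± 0.10 in p53KO (adjusted p = 0.0405, 4 of 13 fits) and had -0.21 in Rosa26KO. Fzr1 (0.19 and -0.21), Nrbp1 (0.13 and -0.20) and Chsy3 (-0.60 and 0.46) were not called in either genotype.

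Mpo, Ngp, Camp and Ltf, which encode neutrophil granule proteins, had -3.66, -4.67, -4.36 and -4.62 in p53KO and 4.15 to 5.36 in Rosa26KO, none of them called by edgeR. DESeq2 gave adjusted p of 0.0274 (Mpo), 0.0109 (Ngp), 0.0588 (Camp) and 0.0127 (Ltf) in p53KO. In p53KO, Mpo had 38.7 CPM in Control_p53KO 1, 6.60 CPM in Control_p53KO 3 and at most 1.44 CPM in the other 11 libraries. With any 1 p53KO library left out, the log2 differences stayed at or below -1.45 (Mpo), -1.73 (Ngp), -1.72 (Camp) and -1.53 (Ltf). Without Control_p53KO 1 and 3, the p53KO values of the 4 genes were 0.58 (Mpo), 1.26 (Ngp), 1.48 (Camp) and 1.47 (Ltf). In Rosa26KO the highest library was HFD_Rosa26KO 6, where Mpo had 49.8 CPM and Ngp 109.7 CPM, against at most 1.81 and 4.94 CPM in the other 11 libraries. Neutrophil markers as a list had medians of -2.29 in p53KO and 1.75 in Rosa26KO, with 0 of 16 called by edgeR in p53KO and 11 at an unadjusted p under 0.05.

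**Figure D5:**
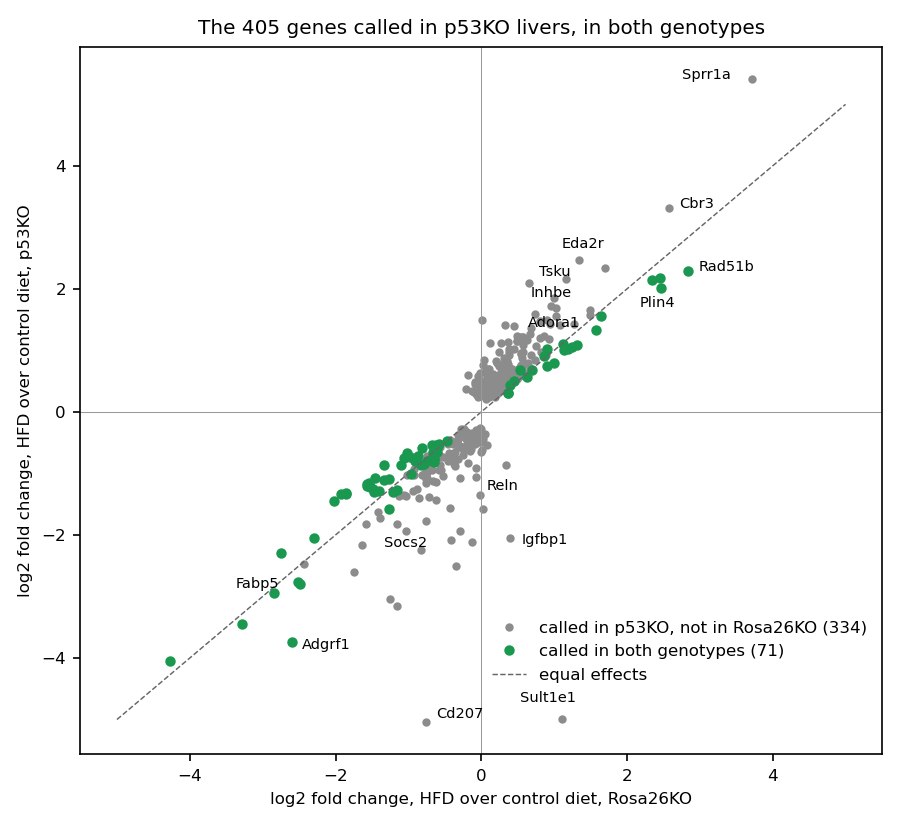
Log2 difference (HFD minus control diet) in p53KO (vertical axis) against Rosa26KO (horizontal axis) for the 405 genes called in p53KO livers. Green points are the 71 called in both genotypes, grey points the other 334, and 377 of the 405 lie in the quadrants of equal sign.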

How the data were processed

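Whole-liver polyA libraries (read pairs of 75 bases) were aligned and counted by the authors with STAR and HOMER on GRCm38 (mm10), per the submitters' processing notes. The sources used here do not give versions, gene models or the strand setting. The deposited table holds raw read counts per gene, whole numbers for 25 libraries. From these counts, edgeR 4.0.16 in R 4.3.3 fitted 4 groups (filterByExpr with a minimum count of 10, TMM, robust quasi-likelihood) with Benjamini-Hochberg adjustment over 14133 genes and a threshold of 0.05. CPM values were computed with TMM-scaled library sizes. limma 3.58.1, DESeq2 1.42.0, other scalings and libraries left out served as alternatives.

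Gene lists and named genes were chosen with earlier results of these data known. Named are the 12 largest rises and 12 largest falls among called genes of at least 1 CPM on average, the 8 of smallest p each way, up to 5 called members per list, a panel of 57 genes, and the 10 of smallest p for the difference between genotypes. Predicted and clone-named genes were passed over, except copies and overlapping genes of a named gene. A few named genes are not reported here. Positions come from GENCODE M21.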

Additional observations from a re-analysis of the deposited data

Results flagged for a closer look

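Each set of p53KO values by diet was examined for a library whose gap to its nearest neighbour was large against the group's range (Dixon's 95% criterion). The criterion was met in 15 of 104 sets (14.4%). Its nominal rate of 1 in 20 assumes normally distributed values and is no valid background here. CPM was not log-transformed, the sets share libraries, and many of the genes were named for their large differences. Control_p53KO 1 was highest among controls in Sult1e1 (112.8 CPM), Cyp3a41a (214.3 CPM), Dio1 (120.5 CPM), Igfbp1 (497 CPM) and summed neutrophil markers (957.2 CPM). Control_p53KO 3 was highest in Cd207 (267.2 CPM), Tsku (83.2 CPM), summed Kupffer cell markers (4242 CPM) and summed T and NK cell markers (203 CPM), and lowest in summed hepatocyte markers (101096 CPM). Control_p53KO 2 was highest in Chrna4 (192 CPM). HFD_p53KO 7 was highest in Adgrf1 (1.48 CPM) and Cpt1a (679.6 CPM) and lowest in Cd36 (57.5 CPM), and HFD_p53KO 6 was highest in Adora1 (81.9 CPM).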

How the results depend on the processing

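The p53KO count of 405 stayed within 1.5 times with RLE scaling, no filter, the dispersion without the robust option, and Control_p53KO 1 and 3 left out together (430 called, 224 of them shared, 47.4% higher against 56.5%). It was 907 by DESeq2, 2189 by limma voom with sample weights, 633 with a term for runs of library numbers, 121 with p53KO libraries alone, and 15, 33 or 144 with run 1, 2 or 3 left out. Calls were higher on HFD in 56.5% of the main count, 45.5% without run 2 and 41.0% without run 3. The Rosa26KO count of 213 was 615, 3038 and 442 by DESeq2, voom and the run term, and 653 with Rosa26KO libraries alone. The difference between genotypes had 5 calls by DESeq2. Leaving out 1 library gave 173 to 760 calls in p53KO, 93 to 509 in Rosa26KO and 0 for the difference. With the replicate block the counts were 785, 549 and 0, but correlations of same-numbered libraries were 0.14 to 0.60 in 4 of 6 pairs and -0.23 and -0.055 in the others, so the numbers were not taken as pairing. The cause of these shifts was not tested.

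Named genes whose log2 difference changed sign were, except for Sult1e1, not called. Without Control_p53KO 1 and 3, values were -0.20 (Acot1), 1.48 (Camp), -0.14 (Cyp8b1), 0.27 (Lpl), 1.47 (Ltf), 0.58 (Mpo), 1.26 (Ngp), 3.65 (Saa1), -0.13 (Srebf1), 1.19 (Sult1e1) and 2.17 (Trem2, adjusted p = 0.0477). Without run 1 they were -0.29 (Acot1), 0.15 (Hmgcs1), 2.17 (Saa1) and 0.86 (Sult1e1), without run 2 -0.13 (Afp), -0.087 (Lcn2) and 1.37 (Trem2), and without run 3 -0.14 (Cyp8b1), 0.46 (Pdk4) and -0.043 (Srebf1). By voom they were 0.22 (Camp), 0.31 (Lpl), 0.097 (Pdk4), 0.39 (Saa1), 0.82 (Sult1e1) and 1.96 (Trem2, adjusted p = 0.0237), and by DESeq2 -1.82 (Lcn2). The replicate block gave 0.13 (Pdk4), 1.07 (Saa1) and 0.99 (Trem2), and the run term 0.64 (Saa1) and 0.23 (Trem2). Leaving out 1 library, ranges were -0.075 to 0.66 (Acot1), -1.74 to 3.78 (Lcn2), -0.85 to 0.092 (Lpl), -0.22 to 0.14 (Pdk4), -2.43 to 3.49 (Saa1), -0.013 to 0.32 (Srebf1), -5.29 to 1.40 (Sult1e1) and -0.37 to 1.78 (Trem2). Depth was similar for both diets, and genes under 1 CPM, such as Eda2r on control diet, rest on few reads.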
